A study of Equus caballus with 34 samples.

Results

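Serum amyloid A transcripts were followed through the last days of growth of the dominant follicle of the mare, in the 2 layers of the follicle wall. Of 43603 probes outside the controls, 10 carry the name SAA1 or a description that names serum amyloid A: 7 are named SAA1 in the files, and 3 were reached through the description alone. The layers were theca wall (TW) and granulosa cells (GC), each taken when the dominant follicle was early (ED), late (LD) or preovulatory (PO), with 5 arrays each of GC ED, GC LD, GC PO, TW ED and TW PO and 9 of TW LD, in all 34 single-colour Agilent arrays. The replicates are called biological in the design text, which counts 5 to 9 a group but gives n = 5 for the comparisons. Which 5 TW LD arrays that meant is not given, so all 9 were used. The labels give no mare, age or treatment, and do not tie GC to TW samples of 1 follicle. RNA of all groups was amplified from an oligo(dT) primer. GC is the layer inside the basement membrane. TW is a dissected wall, so it also holds vessels, stroma and blood cells, and in such bulk samples fewer cells of a type and less RNA per cell cannot be told apart. These genes were chosen because their level moved with stage in these arrays, so their levels and differences are given as a description, with no test.

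Serum amyloid A is the classic acute-phase apolipoprotein. In the liver it is induced by interleukin-1, tumour necrosis factor and interleukin-6 through NF-kappaB, C/EBP and STAT3, travels on high-density lipoprotein, and in horses is measured in the clinic as a marker of inflammation. Other tissues also make it, and the secreted protein acts on the formyl peptide receptor FPR2, on toll-like receptors and on the scavenger receptor SCARB1. Ovulation is often likened to an inflammatory reaction, with cytokines, prostaglandins and leukocytes in the follicle wall.

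The probes lie on chromosome 7 in the coordinates of the files, whose build is not named in the sources used here. All 10 fall within 150127 bases. 5 of them, the SAA1 probes P003221 to P003225, are the same stretch moved 1 base at a time (chr7:74139220-74139283, minus strand). They share 56 bases, and no reading frame of theirs is free of stop codons. They are 5 readings of 1 target, not 5 genes. They lie farthest toward the 3′ end of the SAA1 probes, and the first 30 shared bases are shown because they are common to all 5, among them P003225, which stands for SAA1 below:

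5 overlapping SAA1 probes: gtgttactgaattctatacccctagtagtt

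2 further SAA1 probes lie upstream. P072811 (chr7:74139978-74140037, minus strand) matches its genomic stretch without a gap. P004166 covers 60 bases of transcript over 461 bases of genome (chr7:74139463-74139923, minus strand), so it crosses a gap of 401 bases, as a probe over an exon junction would. The probe for the gene that the RefSeq table of assembly TB-T2T calls SAA, named LOC100033905 in the files, crosses a gap of 430 bases at chr7:74288857-74289346 on the plus strand, 148934 bases from P004166. These 2 probes are shown together because they read the same part of 2 copies. Offset by 1 base, they match at 54 of 59 positions, and the 5 that differ are in capitals:

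P000786, SAA: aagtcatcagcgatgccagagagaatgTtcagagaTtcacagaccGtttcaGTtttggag

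P004166, SAA1: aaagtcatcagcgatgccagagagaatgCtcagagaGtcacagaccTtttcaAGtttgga

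P072811, SAA1: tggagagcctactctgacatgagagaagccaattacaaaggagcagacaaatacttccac

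Their longest common run is 27 bases, so how much of each probe's signal comes from the other copy cannot be told apart. Outside the 5 overlapping probes, no other pair of the 10 shares so long a run, and no probe outside the 10 shares a run of 20 bases with any of them. This compares probes with probes only. Transcripts of the other copies were not searched, so whether any probe, P003225 included, reads 1 copy alone is not known. The remaining pair of probes belongs to LOC100056747, described as a serum amyloid A protein (P072821, chr7:74226073-74226131, plus strand), and to a gene described as similar to SAA4, the constitutive form (P124521, chr7:74151402-74151461, minus strand). Of P072821, the last 30 bases are shown because they hold AATAAA, the usual polyadenylation signal, in capitals. Where its transcript ends was not looked up. AATAAA was searched on both strands. On the printed strand it occurs in 1 of the 10 probes and in 8.64% of all probes, on either strand in 11.9% of all. P124521 is shown as the copy that gave no signal.

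P072821, LOC100056747: attagtgtctAATAAAtgcttaagagattg

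P124521, similar to SAA4: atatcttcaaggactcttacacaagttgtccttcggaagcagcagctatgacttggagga

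In the RefSeq table, SAAL1, SAA1, LOC100056698, LOC100056747 and SAA follow each other on that chromosome, with 2 protein-coding genes between SAA1 and SAA.

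Levels are log2 of the processed signal of a spot relative to the 75th percentile of its array, so 0 is a fairly bright spot and values under about -7 were mostly not well above background, as the scanner software flags it. Levels of different probes are not compared with each other.

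SAA1 was close to background in early dominant follicles of both layers and was measured on every preovulatory array. In GC ED the level of P003225 was -8.32, -9.11, -8.03, -7.95 and -9.71, and no array was well above background. In GC LD it was -8.27, -4.55, -2.75, -6.79 and -9.68. Replicates 2, 3 and 4 were well above background, and replicates 1 and 5 lay as low as the early stage. In GC PO it was -2.61, -3.84, -3.54, -4.34 and -4.87, all well above background and all above every GC ED array. GC LD therefore spans the whole range from the early to the preovulatory level.

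In the theca wall the same probe was at -7.64, -8.89, -7.02, -8.45 and -8.20 in TW ED, with only replicate 3 well above background. The 9 TW LD arrays had a lowest level of -6.94, a median of -5.95 and a highest of -2.16, and 8 of them were well above background. TW PO had 1.53, -0.44, -1.80, -2.88 and -0.66. Replicate 1 of TW PO was the brightest array of all for this probe, at 2.89 times the 75th percentile of its array. All 9 TW LD arrays lay above all TW ED arrays, and 4 of 5 TW PO arrays lay above all TW LD arrays, where TW LD replicate 1 overlapped.

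Ordered by mean, the groups ran TW PO (-0.85 ± 1.65, SD, n = 5), GC PO (-3.84 ± 0.85, n = 5), TW LD (-5.37 ± 1.51, n = 9), GC LD (-6.41 ± 2.79, n = 5), TW ED (-8.04 ± 0.72, n = 5) and GC ED (-8.63 ± 0.76, n = 5). TW PO and GC PO differed by 2.99, more than the larger of their SDs. GC PO and TW LD differed by 1.53, hardly more than the larger SD of 1.51. The 3 lower steps, of 1.04, 1.63 and 0.59, were each smaller than the larger SD of the 2 groups.

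**Figure D1:**
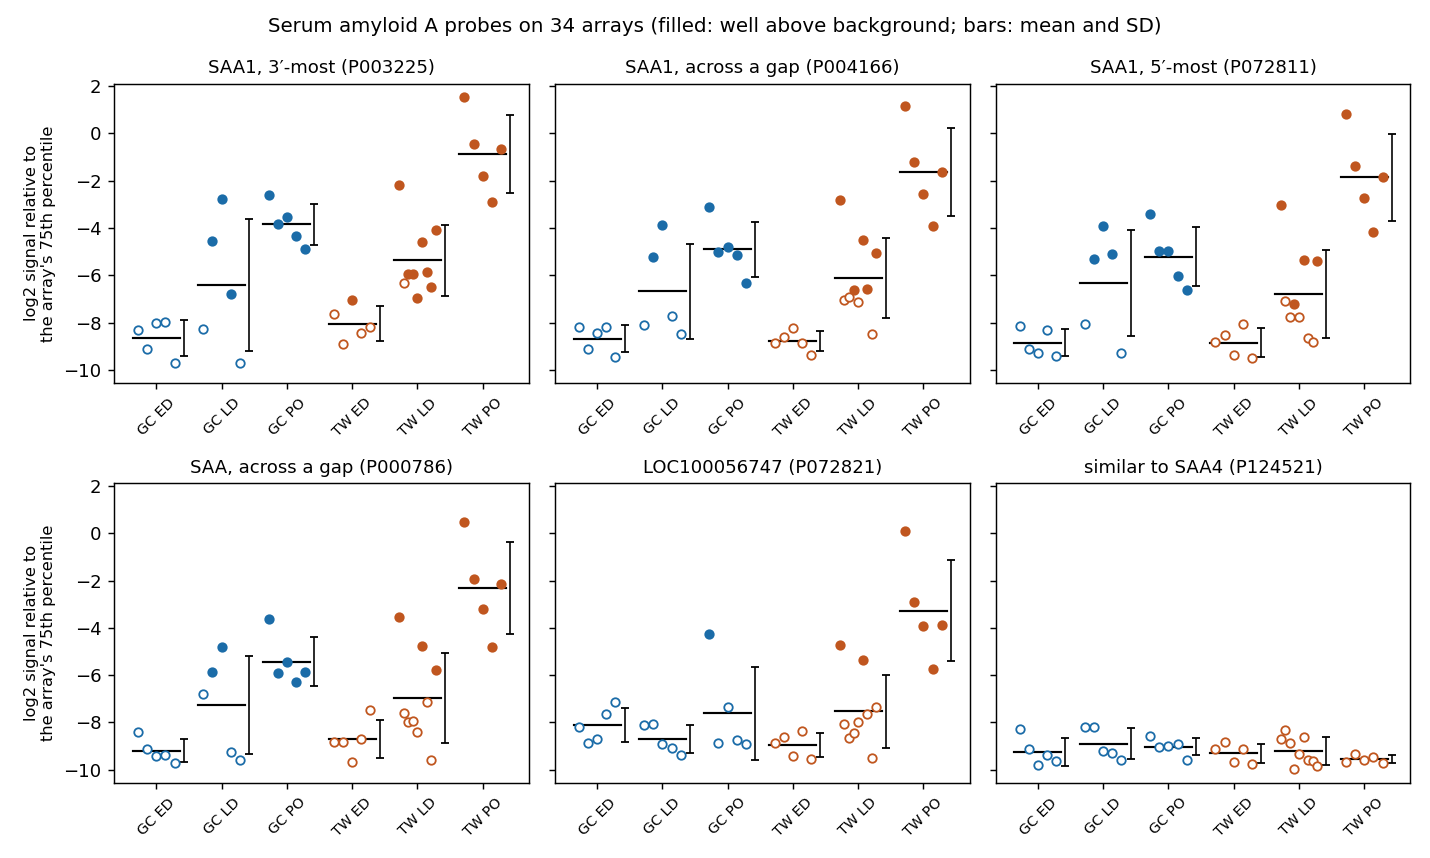
Level of 6 serum amyloid A probes (log2 signal relative to the 75th percentile of the array) on each of 34 arrays, by group; filled points were well above background, the line is the group mean and the bar its SD. The SAA1 and SAA probes are low in GC ED and TW ED and highest in TW PO; the LOC100056747 probe is well above background on 1 of 5 GC PO arrays, and the SAA4-like probe on no array.

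For late against early dominant granulosa cells, P003225 differed by 2.22 ± 1.10 (SE) on the log2 scale. GC ED was not well above background, so folds were formed as bounds. The mean of the bright group was set against a floor for the dim one, averaged over its arrays. That floor was the dimmest signal flagged as well above background on an array, or the signal of the probe there if brighter. On that footing the 7 SAA1 probes were 1.28-fold to 1.92-fold higher in GC LD than in GC ED. For this step it is not a strict bound, as only 2 or 3 of 5 GC LD arrays measured each probe. For preovulatory against late dominant granulosa cells the difference was 2.57 ± 1.10, and over the 7 SAA1 probes it ran from 1.13 to 2.57. A log2 difference against GC LD is not exact, since only 3 of 5 GC LD arrays measured P003225. Without GC LD replicate 3 the 2 steps were 1.30 (LD minus ED) and 3.48 (PO minus LD), and without GC LD replicate 5 they were 3.04 and 1.75.

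Across both steps the measured means of P003225 differed by 4.79 ± 1.10, which is not exact, since no GC ED array was well above background. The bound for it was at least 9.13-fold. The 7 SAA1 probes were at least 3.55-fold to at least 9.13-fold higher in GC PO than in GC ED. Every GC PO array lay above every GC ED array for the 5 overlapping probes, which count as 1 target, and for 3 of the 4 others without the SAA4-like one. This was so for 17.8% of the 25196 features measured in GC.

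In theca wall the step from early to late dominant was 2.67 ± 0.78 and the step from late dominant to preovulatory 4.52 ± 0.78 for P003225. Over the 7 SAA1 probes the steps ran from 2.06 to 2.77 and from 3.70 to 4.93. All TW LD arrays lay above all TW ED arrays for the 5 overlapping probes of 1 target and for 0 of the 4 others, against 0.354% of 27421 features. Between TW PO and TW ED this held for the 5 and for 4 of 4 others, against 9.93% of the features. The measured means of P003225 differed by 7.19 ± 0.88 between TW PO and TW ED and are not exact either, as 1 of 5 TW ED arrays measured it. By the bound, the 6 SAA1 probes that no TW ED array measured were at least 37.9-fold to at least 62.9-fold higher in TW PO.

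The slides bear on these steps, because each of 5 slides holds all 3 GC stages and each of 5 others all 3 TW stages. Within slides, P003225 was higher in TW PO than in TW LD on 5 of 5 slides, by 2.33 to 5.51, and higher in TW LD than in TW ED on 5 of 5, by 0.57 to 5.48. In granulosa cells PO exceeded ED on 5 of 5 slides, by 3.61 to 5.72, in a narrow range. The 2 steps within that difference were uneven. On slides 3 and 5 nearly all of it lay between ED and LD (4.56 and 5.28), and PO minus LD was 0.71 and -0.79. On slides 2 and 10, LD minus ED was 0.06 and 0.03, and PO minus LD was 5.66 and 4.81.

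**Figure D2:**
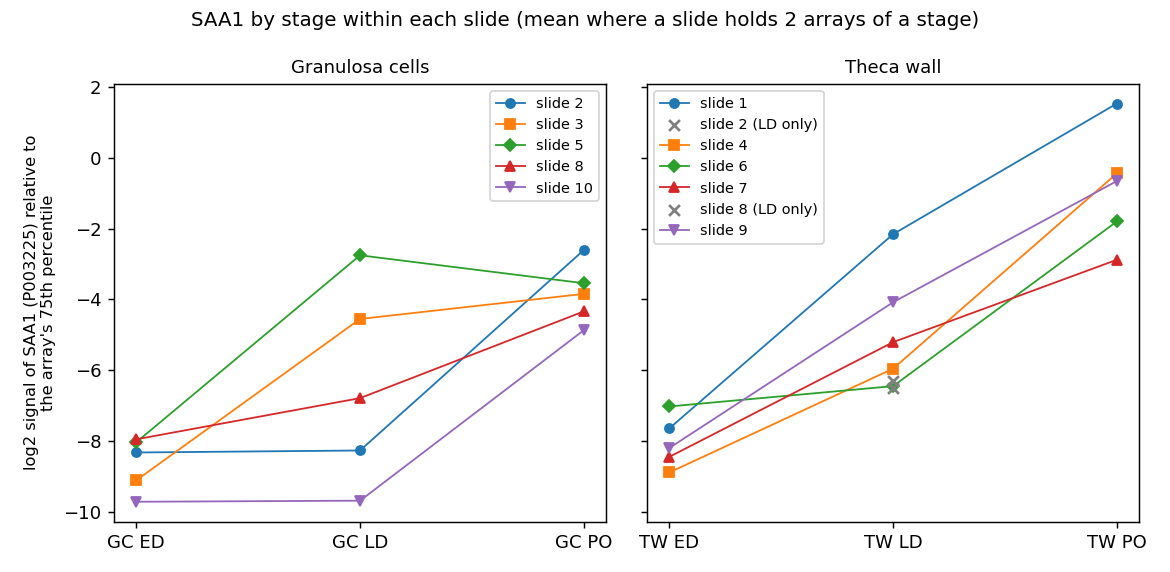
Level of SAA1 (probe P003225, log2 signal relative to the 75th percentile of the array) by stage, with 1 line per slide and the mean where a slide holds 2 arrays of a stage. All TW lines are higher at each later stage; the 5 GC lines meet between -4.87 and -2.61 at PO but spread from -9.68 to -2.75 at LD.

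The group means of the SAA probe had the same order of stages as those of P003225 in both layers. The SAA probe P000786 was at -3.63, -5.89, -5.44, -6.30 and -5.87 in GC PO, against -6.78, -5.88, -4.82, -9.23 and -9.57 in GC LD. In TW PO it was at 0.48, -1.93, -3.21, -4.82 and -2.14, against a lowest, median and highest of -9.58, -7.61 and -3.55 in TW LD. Its difference was 1.83 ± 0.87 in granulosa cells and 4.64 ± 0.95 in theca wall. It was well above background on 3 of 9 TW LD arrays, replicates 1, 6 and 9, which were also the 3 highest for P003225.

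The LOC100056747 probe was measured on 1 of 15 GC arrays. It was at -4.27, -8.85, -7.36, -8.72 and -8.89 in GC PO, with only replicate 1 well above background, and on no array of GC LD or GC ED was it well above background. In TW PO it was at 0.10, -2.90, -3.91, -5.75 and -3.89, all well above background, against a lowest, median and highest of -9.49, -8.00 and -4.74 in TW LD. GC PO replicate 1 was also the highest GC PO array for the SAA1 and SAA probes. The SAA4-like probe was well above background on 0 of 34 arrays, with group means between -9.55 and -8.89.

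The 5 overlapping probes give a measure of spot noise. On 16 arrays outside slide 7 where all 5 were well above background, their highest and lowest readings differed by 0.07 to 1.01 (median 0.45). The noisiest slide, slide 7 (TW ED 4, TW LD 6, TW LD 7 and TW PO 4), had repeated probes varying by 15.1% to 23.0%, against 3.58% to 6.43% elsewhere. On TW PO replicate 1 the spot of P003221 carried an outlier flag and was left out of that probe's values.

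Between layers, P003225 averaged over the 3 stages was lower in GC than in TW by a log2 difference of -1.54 ± 0.55. Most of it came from the preovulatory stage, where GC minus TW was -2.99 ± 0.98 for P003225 and from -3.34 to -2.19 over the 7 SAA1 probes. 4 of 5 GC PO arrays lay below every TW PO array. At LD the difference of P003225 was -1.04 ± 0.87, and at ED no GC array and 1 TW array were well above background, so no fold is given. Only slides 2 and 8 hold both layers, both at LD. There GC LD minus TW LD was -1.96 and -0.28, and with slide as a replicate block the difference between layers was -0.24. Scaling also matters here: centring arrays on their median moved the median of all features from -0.08 to 0.50, and P003225 then differed by -0.96. The step from LD to PO was smaller in granulosa cells than in theca wall by -1.95 ± 1.31, and by -1.04 without GC LD replicate 3.

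Genes around serum amyloid A were taken from 5 lists of 88 genes, of which 72 have a named probe. They were tested with limma, adjusted (Benjamini-Hochberg) over all features measured, and called at an adjusted p under 0.05.

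Preovulatory against late dominant theca wall had the most calls among the stage comparisons. Of 64 listed genes measured, 20 rose and 1 fell, at a median log2 difference of 0.76, against 0.03 over all 27025 features, of which 15.7% were called. Among inducing cytokines and their receptors 3 of 15 rose. They were the interleukin-1 receptor antagonist IL1RN (3.20 ± 1.05, adjusted p = 0.046), IL6 (2.69 ± 0.64, adjusted p = 0.0128) and IL1A (2.27 ± 0.67, adjusted p = 0.0303). Only 3 of 9 TW LD and 4 of 5 TW PO arrays measured IL1A, so its difference is not exact. IL1B had a difference of 1.24 ± 0.48 (adjusted p = 0.0824 in limma) and TNF one of 0.28 ± 0.31 (adjusted p = 0.557 in limma).

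Of 17 transcription regulators 7 rose in TW PO and none fell. Besides CEBPB, which encodes the C/EBP beta factor (1.36 ± 0.35, adjusted p = 0.0162), these were NFKB1, NFKB2, RELA, RELB, NFKBIZ and the NF-kappaB inhibitor NFKBIA. NFKBIA had 0.66 ± 0.19 (adjusted p = 0.0278), with 8 of 9 TW LD and 4 of 5 TW PO arrays kept. NFKB1, NFKB2, RELA and RELB are 4 of the 5 NF-kappaB subunit genes, at 0.76 to 1.14. The remaining subunit gene, REL, did not pass. SOCS3, a feedback inhibitor of interleukin-6 signalling, had 1.85 ± 0.68 (adjusted p = 0.0687) and STAT3 had 0.89 ± 0.43 (adjusted p = 0.162, with 1 TW PO array left out for an outlier flag).

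Of 14 other acute-phase proteins 4 rose in TW PO. Complement factor B, CFB, rose by 3.41 ± 0.72 (adjusted p = 0.00804), TNFAIP6, which stabilizes the hyaluronan matrix, by 2.96 ± 0.88 (adjusted p = 0.0313), the protease inhibitor A2M by 2.28 ± 0.69 (adjusted p = 0.033), and ITIH3 by 1.09. Pentraxin PTX3 had 2.41 ± 1.02 (adjusted p = 0.114), with 3 of 5 TW PO arrays kept. Of 15 receptors and lipoprotein partners 4 rose and APOA1, the main protein of high-density lipoprotein, fell by 0.79. TLR4 rose by 2.47 ± 0.46 (adjusted p = 0.00601) and TLR2 by 1.37 ± 0.43 (adjusted p = 0.0393). CD14, the co-receptor of TLR4, and the cholesterol exporter ABCG1 rose too. FPR2 had 1.68 ± 0.69 (adjusted p = 0.0986) and SCARB1 0.16 ± 0.32 (adjusted p = 0.767). Of 3 proteases that cut serum amyloid A, the collagenase MMP1 (3.79 ± 1.16, adjusted p = 0.0353) and CTSB, cathepsin B, rose. Only 4 of 9 TW LD arrays measured MMP1, so its difference is not exact. With slide as a replicate block 8 of these 21 calls were left in number, against 1773 of 27025 features called. MMP1, IL1RN, TNFAIP6, A2M, IL1A, NFKBIA and TLR2 no longer passed (adjusted p from 0.0675 to 0.151). The count was 10 without TW PO replicate 1, 13 without replicate 3 and 8 without replicate 5.

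In granulosa cells the same step had 6 listed genes that rose and 4 that fell of 55 measured, against 17.5% called of 25111 features. The median of the listed genes was 0.54, against 0.01 over all features. TLR2 rose by 4.14 ± 0.88 (adjusted p = 0.0088), CEBPB by 3.1 ± 0.88 (adjusted p = 0.0278), CFB by 3.04 ± 0.72 (adjusted p = 0.0135), the phospholipid transfer protein PLTP by 2.34 ± 0.51 (adjusted p = 0.00981), TLR4 by 2.33 ± 0.49 (adjusted p = 0.00869) and CTSB by 1.39. The values of CFB and PLTP rest on dim arrays, as 3 and 1 of 5 GC LD arrays measured them. The 4 that fell were the inter-alpha-trypsin inhibitor chain ITIH4 (-2.43 ± 0.49, adjusted p = 0.00755), LCAT, which esterifies cholesterol on lipoproteins (-2.0 ± 0.42, adjusted p = 0.0088), the glucocorticoid receptor NR3C1 (-1.68 ± 0.37, adjusted p = 0.00997) and LIFR. The LIFR probe was well above background on 0 of 5 GC PO and 1 of 5 GC LD arrays, so that call compares signals near background and no difference is given.

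Several of the best known inducers and partners did not pass in granulosa cells. IL1B had 1.71 ± 0.78, NFKBIA 1.11 ± 0.47, STAT3 0.47 ± 0.47, SOCS3 0.96 ± 0.71, PTX3 2.21 ± 1.37, SCARB1 1.43 ± 0.64, TNF -0.23 ± 0.24 and TNFAIP6 -0.34 ± 1.61, at adjusted p from 0.112 to 0.907 in limma. IL6 and FPR2 were well above background on too few GC arrays (3 of 15 each) to be tested there. No probe was found by name for HP and CEBPD.

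**Figure D3:**
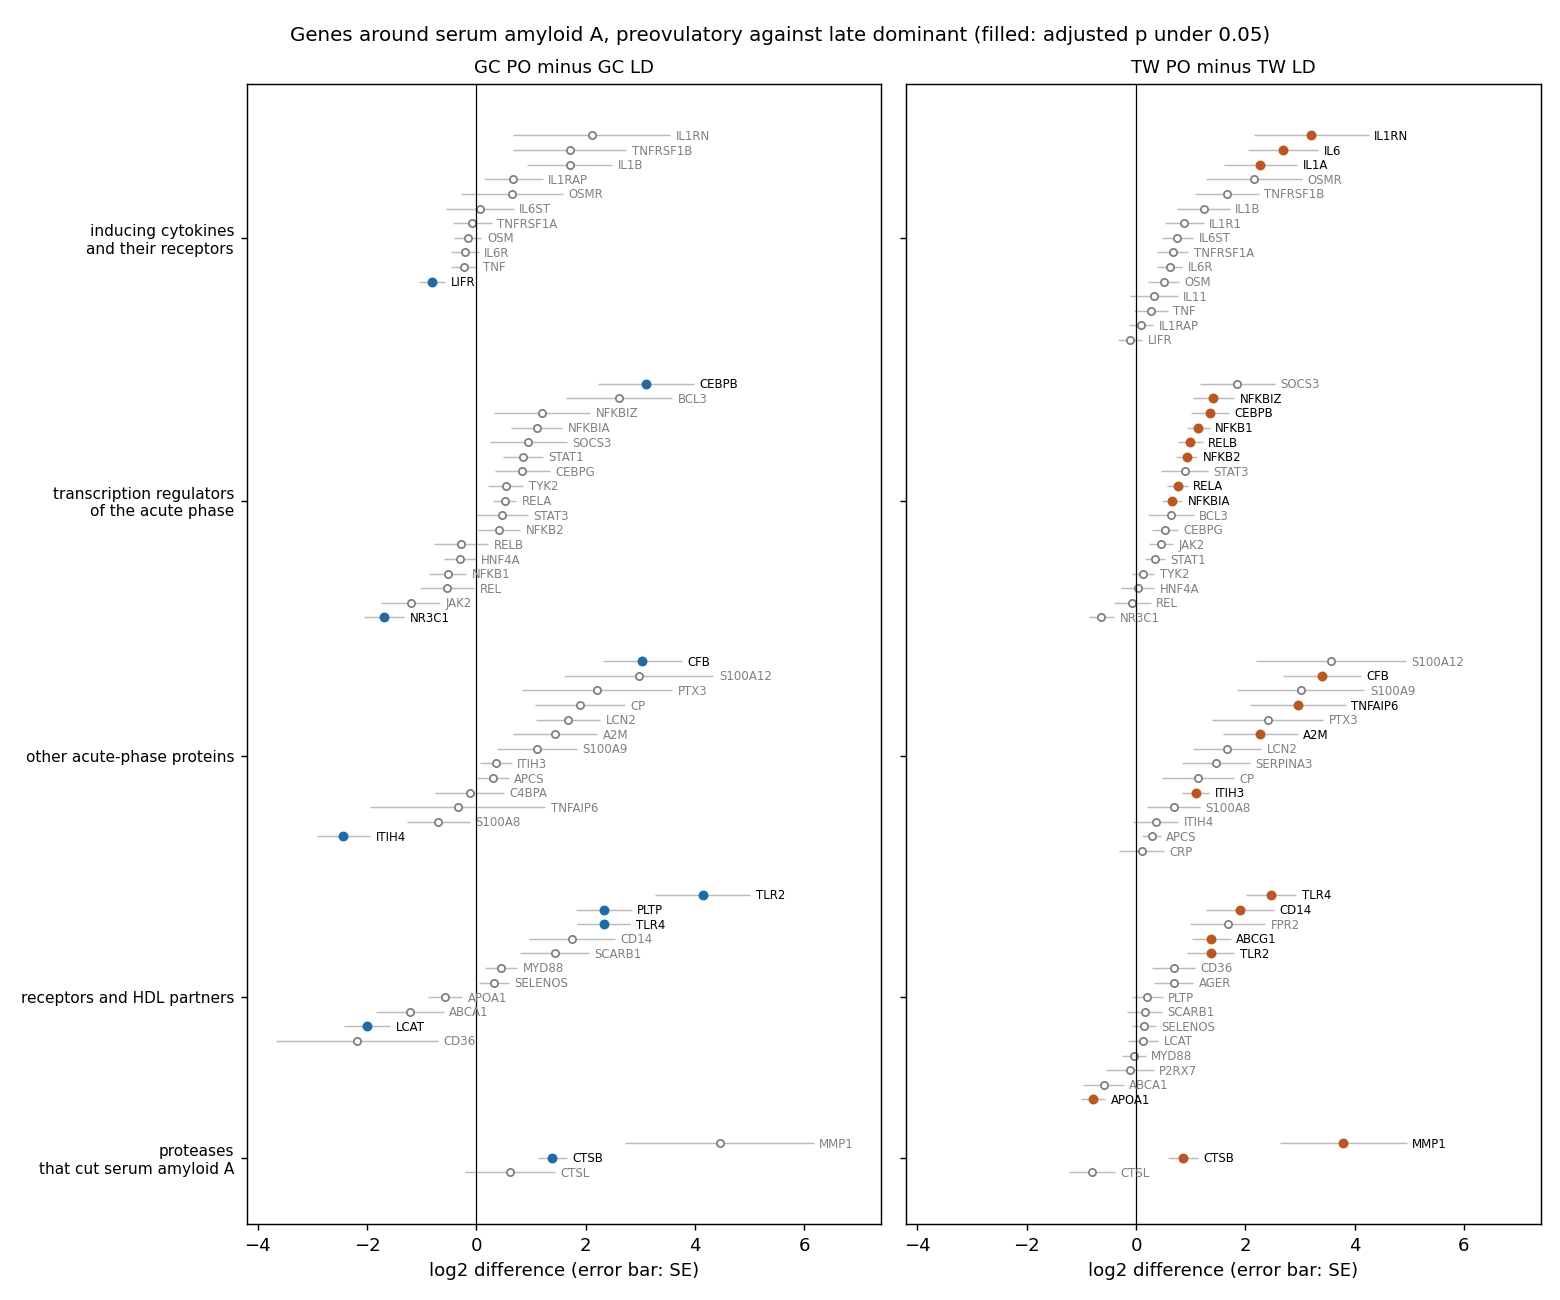
Log2 difference with its SE for the listed genes measured in granulosa cells (left) and theca wall (right), preovulatory minus late dominant, sorted within each of 5 lists; filled points passed an adjusted p of 0.05. In theca wall 20 of 64 are filled to the right of 0 and APOA1 to the left; in granulosa cells 6 are filled to the right and 4 to the left of 55.

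The earlier step, from ED to LD, had no called gene on the lists in either layer. In granulosa cells 0.00398% of all features were called (1 of 25111) and 0 of 55 listed genes. At an unadjusted p under 0.05 in limma there were 22 listed genes, against 15.1% of all features. The largest named differences were PTX3 at 6.73 ± 1.37, TNFAIP6 at 4.08 ± 1.61, CEBPB at 2.98 ± 0.88, TLR2 at 2.51 ± 0.88 and NFKBIA at 2.29 ± 0.47, at adjusted p from 0.164 to 0.271 in limma. All 5 GC LD arrays lay above all GC ED arrays for NFKBIA and 4 of 5 for PTX3. The share of all features for which this held was not counted for this step. Without GC LD replicate 5, the array lowest in SAA1, 12 listed genes were called, all higher (5.05% of all features), and with all 34 arrays in 1 fit 11 were (5.72%). The other named genes were at -0.11 (TNF) to 2.10 (SOCS3).

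In theca wall 0.037% of all features were called between LD and ED (10 of 27025) and 0 of 64 listed genes. At an unadjusted p under 0.05 there were 23, against 15.1% of all features. TNFAIP6 had 2.26 ± 0.88, SOCS3 2.09 ± 0.68, PTX3 1.73 ± 0.86, TLR2 1.63 ± 0.43, CEBPB 1.19 ± 0.35 and IL1B 1.15 ± 0.48, at adjusted p from 0.121 to 0.354 in limma. NFKBIA and IL6 were at 0.00 and 0.08. The differences of the other named genes were 0.51 (TNF), 0.51 (STAT3), 0.70 (FPR2) and 0.80 (SCARB1).

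Between layers most of the listed genes were lower in granulosa cells. Of 65 measured, 4 were higher and 40 lower in GC than in TW averaged over stages, against 52.6% called of 27839 features. With median centring the split was 15 higher and 24 lower, with quantile normalization 12 and 30, with normexp correction and quantile normalization 9 and 27, and in the deposited values 10 and 29. The protease inhibitor SERPINA3 was on no GC array and on all 19 TW arrays well above background, and was at least 19.7-fold lower in GC (adjusted p = 4.14e-16 in limma). The interleukin-1 receptor IL1R1 differed by -5.48 ± 0.31 (adjusted p = 1.32e-15), A2M by -4.85 ± 0.45 (adjusted p = 8.64e-11), CFB by -4.47 ± 0.44 (adjusted p = 4.23e-10), and ceruloplasmin, CP, by -4.30 ± 0.45 (adjusted p = 1.27e-09). ABCG1, PLTP and the oncostatin M receptor OSMR differed by -3.82, -3.65 and -3.65. IL6 differed by -3.26 and IL1B by -2.62. IL1R1 and ABCG1 were well above background on 4 of 15 GC arrays each, IL6 and FPR2 on 3, PLTP on 5 and OSMR on 6, so the differences of these genes are not exact. CFB, CP and A2M were so on 0, 2 and 3 of 5 GC ED arrays, so their differences are not exact either. TLR2 (-1.45), SOCS3 (-1.34), FPR2 (-1.27), SCARB1 (-1.08), CEBPB (-0.93) and TNF (-0.57) also passed, but none of these 6 does so with median centring. The difference of TNF turned to 0.0165 there, and was also above 0 with quantile normalization, with normexp, in the deposited values and with slide as a block. NFKBIA, STAT3, PTX3 and TNFAIP6 did not pass (adjusted p from 0.182 to 0.553 in limma). With slide as a replicate block, which rests on the 2 slides with both layers, 10 of the 65 were called, against 4245 of all 27839 features. CP (adjusted p = 0.0587), IL1B (0.148) and OSMR (0.188) no longer passed, nor did those 6.

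The step from LD to PO differed between layers for 7 of 65 listed genes, against 19.7% of 27839 features. The step was lower in granulosa cells for IL6 (difference of differences -3.54 ± 0.90, adjusted p = 0.00691), ITIH4 (-2.79 ± 0.66, adjusted p = 0.00434), LCAT (-2.12 ± 0.50, adjusted p = 0.00426), NFKB1 (-1.66 ± 0.38, adjusted p = 0.00382) and JAK2 (-1.66 ± 0.55, adjusted p = 0.0308). ITIH4, LCAT and JAK2 had steps of -2.43, -2.0 and -1.20 in granulosa cells, against 0.36, 0.13 and 0.46 in theca wall. With slide as a replicate block JAK2 no longer passed (adjusted p = 0.0567). TLR2 (2.77 ± 0.95, adjusted p = 0.0372) and PLTP (2.13 ± 0.56, adjusted p = 0.00855) had a higher step in granulosa cells. IL6 was well above background on 2 of 5 GC LD and 0 of 5 GC PO arrays, and PLTP on 1 of 5 GC LD arrays. The values of IL6 and PLTP are therefore not exact. The split of 2 higher and 5 lower was 1 and 5 with normexp correction and 0 and 5 in the deposited values. The count was 11 without GC LD replicate 3.

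Markers of the named layer were measured in both. In multiples of the 75th percentile, granulosa markers summed to 147 to 399 over the GC arrays and theca markers to 109 to 199 over the TW arrays. Markers of the other layer also gave signal. Granulosa markers summed to 42.3 to 122 over the TW arrays, and theca markers to 7.48 to 74.7 over the GC arrays. Of 12 granulosa markers 11 were called higher in GC than in TW and 1 lower, against 52.6% of all features called. The lower one was CDH2 (-0.67 ± 0.16), and SERPINE2 was higher by only 0.32 ± 0.12. The sum over TW arrays is therefore not a measure of granulosa cells in them. By group, leukocyte markers followed the order of stages of SAA1. The summed level of 17 measured markers had medians of 0.43, 1.38 and 2.78 in GC ED, GC LD and GC PO, and of 4.08, 8.00 and 24.9 in TW ED, TW LD and TW PO, with a range of 14.6 to 45.5 in TW PO against 6.78 to 22.4 in TW LD. For that step 11 of 17 rose and none fell in theca wall, against 15.7% of all features called. In granulosa cells 0 of 15 were called, against 17.5%. MPO, a neutrophil marker, was on no array of GC and of TW ED well above background. TW LD replicates 1, 6 and 9, the 3 highest for SAA1, were also the 3 highest for the leukocyte sum, at 19.5, 22.4 and 15.4. TW PO replicate 1 was the highest of all arrays for both, with a leukocyte sum of 45.5 and SAA1 at 1.53. In GC LD, replicate 3 was highest for both (5.64 and -2.75) and replicate 5 lowest for both (0.67 and -9.68). Some arrays did not follow this. GC LD replicate 1 had a leukocyte sum of 2.98 with SAA1 at -8.27, while GC LD replicate 2 had 1.38 with SAA1 at -4.55. TW ED replicate 4 had a sum of 9.14, above 5 of the 9 TW LD arrays, with SAA1 at -8.45. The part of leukocytes in the level of SAA1 was not tested.

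Theca markers in granulosa samples had median sums of 17.4, 10.8 and 15.2 in GC ED, GC LD and GC PO. GC LD replicates 3 and 2, with SAA1 at -2.75 and -4.55, had theca sums of 10.0 and 7.48. GC LD replicate 5, with SAA1 at -9.68, had 10.8. GC LD replicates 1 and 4, with SAA1 at -8.27 and -6.79, had the highest theca sums of GC LD, 74.7 and 44.8. The part of theca cells in the SAA1 level of granulosa samples was not tested. Of 6 hepatocyte markers, TTR, APOH and FGB were on no array of 5 of the 6 groups well above background. In TW LD this held for APOH and FGB. ALB, APOA2 and AHSG were tested, and of these 3 none was called from LD to PO in either layer. The step of ALB was higher in granulosa cells than in theca wall by 2.49 ± 0.72 (adjusted p = 0.0148 in limma). Summed hepatocyte markers were at most 0.51 on any array. Adipocyte markers summed to at most 5.54, with PLIN1 on no array well above background, and ovarian surface epithelium markers to at most 3.30, with KRT7 on none. From LD to PO in theca wall 1 of 3 adipocyte markers tested rose, LPL (1.13 ± 0.35, adjusted p = 0.0344 in limma). Of 4 surface epithelium markers 1 rose there, UPK3B (0.69 ± 0.17, adjusted p = 0.0157 in limma), against 15.7% of all features called. In granulosa cells UPK3B had -0.76 ± 0.24 (adjusted p = 0.0441 in limma).

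**Figure D4:**
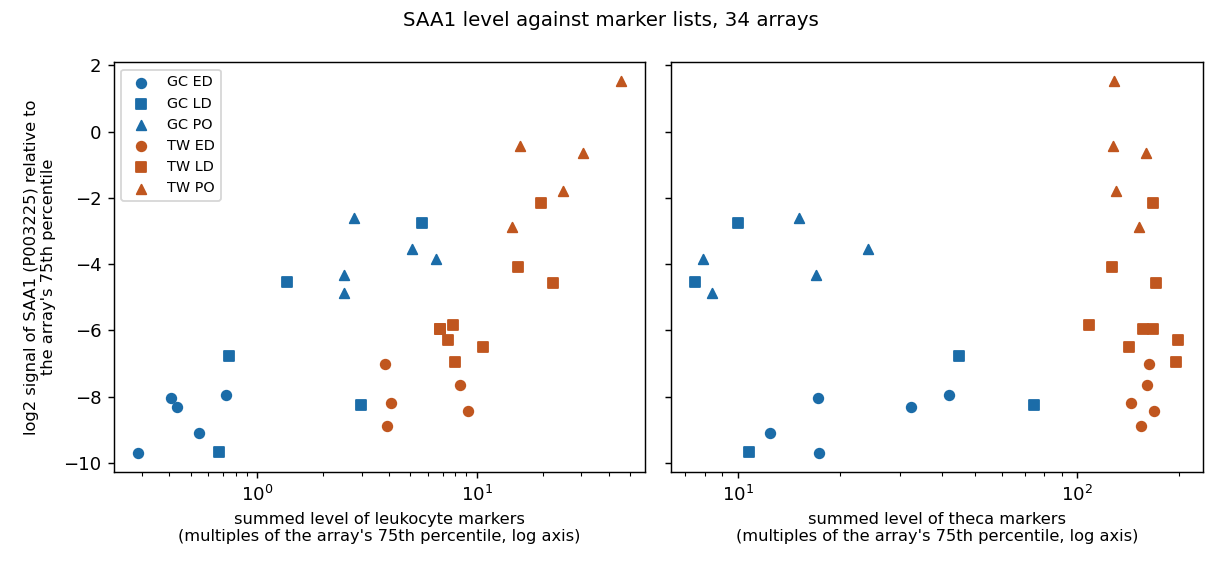
Level of SAA1 (probe P003225, log2 signal relative to the 75th percentile of the array) against the summed level of leukocyte markers (left) and of theca markers (right) on 34 arrays, with log horizontal axes in multiples of the 75th percentile; colour marks the layer and shape the stage. The median leukocyte sum is highest in TW PO (24.9) and lowest in GC ED (0.43), but GC LD replicate 1 has a sum of 2.98 with SAA1 at -8.27; GC LD replicate 1 also has a theca sum of 74.7.

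The genes whose level ran most like that of P003225 were picked by Pearson's r, so no p is given. The arrays share stages and layers, and r over all of them follows those groups. Over 34 arrays and 9156 genes these were the macrophage marker CD68 (r = 0.879, rho = 0.878, r = 0.847 without the 2 arrays farthest from the median), IL1RN (r = 0.871, rho = 0.872, 0.862 without the 2), the cortisol-activating enzyme HSD11B1 (r = 0.862, rho = 0.869, 0.872 without the 2), DNMT3L (r = 0.858), CD38 (r = 0.850) and ADAM9 (r = 0.848). Within the 19 TW arrays they were BIRC3, an inhibitor of apoptosis (r = 0.953, rho = 0.935, 0.958 without the 2), CD68 (r = 0.945) and ADTRP (r = 0.925). Within the 15 GC arrays they were C1H15orf40 (r = 0.952, rho = 0.918, 0.932 without the 2), the fructose transporter SLC2A5 (r = 0.947) and EMP1 (r = 0.947). BIRC3 averaged 0.11 in TW PO and -1.85 in TW LD, but -2.88 in GC PO and -2.56 in GC LD. HSD11B1 was well above background on no GC ED array, 2 of 5 GC LD and 5 of 5 GC PO arrays, much as P003225 was.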

How the data were processed

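The deposited scanner files hold, per the file headers, spot intensity values read by Agilent Feature Extraction. The version is 9.1 in the submitters' processing notes, while the file headers give a different version. Processed intensity, already background-subtracted by that software, was divided by the 75th percentile of each array and taken to log2. Controls and spots with an outlier flag were dropped, and repeat spots averaged. The value table deposited by the authors holds log2 values with no stated processing: each column correlated with the log2 mean signal of its array at r of at least 0.997, column medians were 7.40 to 7.41, and it served as an alternative. From 64.3% to 82.5% of spots were well above background. The number of arrays limits precision.

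A feature entered a fit if well above background on at least 5 of its arrays. Genes were represented by their brightest probe. Stage differences were fitted with limma 3.58.1 (R 4.3.3) on 15 GC or 19 TW arrays, differences between layers on 34, and checked on simulated data. Replicate numbers follow accession order and pair nothing, and slide, from the headers, is the block. No genome was used here. 21777 of 43603 probes had a symbol, through RefSeq TB-T2T names, the file's own symbols or descriptions. Genes were named by rule: up to 8 called genes of largest difference per comparison, 14 always given where measured, and the genes most like P003225. The members, lists and rule were chosen with earlier results of these data known.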

Additional observations from a re-analysis of the deposited data

Results flagged for a closer look

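In 7 of 65 listed genes the step from LD to PO differed between layers in limma's interaction term (GC PO minus GC LD against TW PO minus TW LD). Of all 27839 features 19.7% did so. The differences of differences were -3.54 for IL6, -2.79 for ITIH4, -2.12 for LCAT, -1.66 for NFKB1, -1.66 for JAK2, 2.77 for TLR2 and 2.13 for PLTP. IL6 differed by -0.84 in granulosa cells, where 3 of 15 arrays measured it, and by 2.69 in theca wall. ITIH4 and LCAT differed by -2.43 and -2.0 in granulosa cells and by 0.36 and 0.13 in theca wall. TLR2 and PLTP differed by 4.14 and 2.34 in granulosa cells and by 1.37 and 0.21 in theca wall. Only 1 of 5 GC LD arrays measured PLTP. No array stood apart from its group by Dixon's criterion in any of 36 combinations of a serum amyloid A probe and a group with a measured array.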

How the results depend on the processing

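The difference of P003225 kept its sign in all 6 comparisons under every alternative run. Normexp correction with an offset of 50, which lifts dim signals by construction, shrank it to 0.66 for GC PO minus GC LD, 0.43 for TW LD minus TW ED and 2.51 for TW PO minus TW LD, and the deposited values gave 0.85 for TW LD minus TW ED. Counts of listed genes called were 11 (GC LD minus GC ED), 17 (GC PO minus GC LD) and 12 (TW PO minus TW LD) with all 34 arrays in 1 fit, against 0, 10 and 21 per layer. In the same order, that fit called 1592, 7823 and 2059 of all 27839 features. With slide as a replicate block, which costs degrees of freedom, the listed genes called were 8 for TW PO minus TW LD and 10 for GC minus TW. No other such count moved by over 1.5 times. That block called 1773 of 27025 and 4245 of 27839 features for these comparisons. Leaving out 1 array gave 0 to 12 for GC LD minus GC ED, 8 to 28 for TW PO minus TW LD and 5 to 11 for the interaction. The 42 calls of named genes, in which a gene can count in several comparisons, stayed in 1360 of 1503 alternatives, were no longer called in 138 and turned in 5, all 5 of them TNF between layers. TNF, GC minus TW, was 0.0165 with median centring, 0.0808 with quantile normalization, 0.0282 with normexp, 0.0227 in the deposited values and 0.15 with the replicate block. Genes that had not passed also turned. With median centring NFKBIA, STAT3 and PTX3 between layers were 0.36, 0.14 and 0.025, and SCARB1 in TW PO minus TW LD was -0.0519. With the replicate block NFKBIA, STAT3, PTX3 and TNFAIP6 between layers were 0.0485, 0.21, 0.40 and 0.56, and IL6 in TW LD minus TW ED was -0.10. NFKBIA in TW LD minus TW ED was -0.0361 with median centring, -0.017 with quantile normalization, -0.0816 with normexp and -0.0616 with every probe counted, and TNF in TW PO minus TW LD was -0.0148 with normexp and -0.00296 in the deposited values. Leaving out 1 array gave -0.23 to 0.0257 for TNF in GC LD minus GC ED, -1.76 to 0.83 for TNFAIP6 in GC PO minus GC LD, -0.17 to 0.36 for IL6 and -0.059 to 0.091 for NFKBIA in TW LD minus TW ED, and -0.11 to 0.30 for SCARB1 in TW PO minus TW LD. The cause was not tested. Signals near background limit every value of the early stage.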
